A study of Mus musculus with 2 samples.

Results

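The Rhox genes are a family of homeobox genes on the mouse X chromosome, and 33 protein-coding members were found among 21887 mm10 protein-coding genes by taking every symbol that starts with Rhox followed by a digit. Their DNA was read in testis by MBD2 capture, in which sheared DNA bound to a protein domain that recognises methylated CpGs is sequenced. There were 2 libraries, 1 from a testis of a C57BL/6 male with the genotype label Kaiso KO, described as generation 3 offspring and male sterile, and 1 from a wildtype C57BL/6 testis. The description of the knockout sample also calls its testis WT, so every knockout value rests on the genotype label. The labels state neither the age of the animals nor the deleted part of the allele. Reads were counted in windows of 100 bp, and 495 of the 2537435 deposited windows overlapped a Rhox gene or the 1 kb on each side of it, of which 4 belonged to 2 genes.

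Rhox proteins are transcription factors made mainly in the testis, epididymis, ovary and placenta. The genes lie in an alpha subcluster (Rhox1 and the copies of Rhox2, Rhox3 and Rhox4), a beta subcluster (Rhox5 to Rhox9) and a gamma subcluster (Rhox10 to Rhox13), and much of the cluster is known to be silenced by DNA methylation in somatic cells of the embryo. Kaiso, encoded by Zbtb33, is a BTB/POZ protein whose zinc fingers recognise methylated CpGs and an unmethylated motif.

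The libraries held 98549116 knockout and 87710791 wildtype reads. All deposited windows had an unadjusted p-value below 0.05 between the libraries, so a window that is not listed was not shown to be unchanged, and listing pushes ratios away from 1. With 1 library per genotype no difference below has a replicate check or a test, and the intervals cover counting error only, since PCR copies are not independent molecules. A whole testis was read, so more cells carrying methylated Rhox DNA and more methylation per cell cannot be told apart. Of all listed windows 56.5% were higher in the knockout library, and of those on X outside the Rhox genes 64.6%.

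The finding rests on the starts of the genes, so 6 promoters are shown first, as RefSeq gives them for GRCm38.p6 (the assembly of mm10), from 250 bases before to 50 bases after the start. They were chosen to show copies and single genes with low wildtype capture, and the Rhox3a promoter, which went the other way. Letters run along the gene and capitals mark CpGs. Captured reads were counted per window, so no CpG was read singly. Rhox2a (chrX:37244742-37245041), Rhox4a (chrX:37265125-37265424), Rhox3a2 (chrX:37380133-37380432), Rhox10 (chrX:38066225-38066524), Rhox13 (chrX:38120590-38120889) and Rhox3a (chrX:37249669-37249968) are all on the plus strand.
Rhox2a: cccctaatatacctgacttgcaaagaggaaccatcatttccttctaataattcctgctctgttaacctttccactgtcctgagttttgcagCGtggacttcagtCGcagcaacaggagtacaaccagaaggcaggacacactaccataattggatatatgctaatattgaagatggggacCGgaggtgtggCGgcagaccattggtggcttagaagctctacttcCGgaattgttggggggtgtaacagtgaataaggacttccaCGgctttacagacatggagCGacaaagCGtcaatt
Rhox4a: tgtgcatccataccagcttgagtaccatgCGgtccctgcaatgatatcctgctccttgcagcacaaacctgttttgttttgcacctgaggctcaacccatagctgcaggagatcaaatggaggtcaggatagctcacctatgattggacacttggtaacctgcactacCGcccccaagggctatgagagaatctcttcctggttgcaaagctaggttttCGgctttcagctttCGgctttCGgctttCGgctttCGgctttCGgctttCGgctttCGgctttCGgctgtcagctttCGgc
Rhox3a2: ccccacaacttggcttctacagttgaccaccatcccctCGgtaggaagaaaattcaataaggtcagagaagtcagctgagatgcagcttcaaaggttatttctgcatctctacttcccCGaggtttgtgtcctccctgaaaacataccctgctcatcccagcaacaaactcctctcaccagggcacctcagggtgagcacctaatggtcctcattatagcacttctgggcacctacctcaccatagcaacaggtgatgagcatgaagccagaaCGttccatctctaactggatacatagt
Rhox10: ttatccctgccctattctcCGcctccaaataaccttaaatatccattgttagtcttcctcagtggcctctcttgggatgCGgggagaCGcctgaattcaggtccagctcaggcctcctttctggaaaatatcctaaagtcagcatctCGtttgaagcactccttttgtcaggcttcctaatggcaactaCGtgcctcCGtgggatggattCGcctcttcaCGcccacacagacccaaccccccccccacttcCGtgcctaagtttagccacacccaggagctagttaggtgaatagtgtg
Rhox13: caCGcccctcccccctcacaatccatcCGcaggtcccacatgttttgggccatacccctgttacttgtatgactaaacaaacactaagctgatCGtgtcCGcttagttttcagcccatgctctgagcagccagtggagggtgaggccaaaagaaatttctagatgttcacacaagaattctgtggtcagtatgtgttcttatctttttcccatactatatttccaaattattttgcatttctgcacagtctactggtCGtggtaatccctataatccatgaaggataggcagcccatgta
Rhox3a: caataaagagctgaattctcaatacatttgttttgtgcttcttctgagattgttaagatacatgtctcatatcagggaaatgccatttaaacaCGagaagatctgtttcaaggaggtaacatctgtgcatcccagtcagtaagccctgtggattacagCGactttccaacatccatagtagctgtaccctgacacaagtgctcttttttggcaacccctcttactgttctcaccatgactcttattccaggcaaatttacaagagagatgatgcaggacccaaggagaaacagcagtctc

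The Rhox2a promoter holds 8 CpGs, and its 4 listed windows had 55, 49, 51 and 72 counts in the knockout library, against 5, 5, 2 and 2 in the wildtype library. The Rhox4a promoter, with 12 CpGs, had 40, 39, 42 and 32 knockout counts, against 2, 3, 4 and 3 wildtype counts. In the Rhox10 promoter, with 9 CpGs, the knockout counts were 20, 27, 38 and 47, against 3, 4, 4 and 5 in wildtype. These promoters were picked for their low wildtype counts, so the windows illustrate the difference and do not support it. Rhox13, with 5 CpGs, had 15, 23 and 35 knockout counts, against 4, 4 and 5 wildtype counts. The 2 listed windows of the Rhox3a2 promoter, with 3 CpGs, had 10 and 35 knockout counts and 0 wildtype counts. The Rhox3a promoter, with 2 CpGs, went the other way, with 0 knockout counts in its 2 windows, against 11 and 10 wildtype counts. These windows also lie within 1 kb of the end of Rhox2a. This promoter shares only 48.3% of aligned bases with that of Rhox3a2, so it is not the same promoter in another direction.

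Over the listed windows of the family more methylated DNA was captured in the knockout testis. Listed windows were 2.31% (Rhox5) to 38.8% (Rhox6) of those that tile a gene and its 1 kb on each side. The values below thus do not give the level of whole genes. The 495 windows held 16997 counts in the knockout library, against 4964 in the wildtype library. A fragment was counted in several windows, so counts were divided by 4, which gave 4249 knockout fragments (exact Poisson 95% interval 4122 to 4379) and 1241 wildtype fragments (1173 to 1312). Scaled by library reads, the knockout library was 3.05-fold higher (exact Clopper-Pearson 95% interval of the conditional binomial, 2.86 to 3.25). Listed windows of X outside the Rhox genes gave 1.35-fold (1.35 to 1.36), and all listed windows 1.21-fold. Of the Rhox windows 429 (86.7%, Clopper-Pearson 83.4 to 89.5%) had more scaled counts in knockout, and 66 had fewer. Adjacent windows share fragments, so this interval is too narrow. The median window had an RPKM, the count scaled by window length and library reads, of 3.45 in the knockout library and 0.684 in the wildtype library. On X outside the Rhox genes the medians were 2.84 and 2.28, so with all windows pooled the Rhox windows lay below others in the wildtype library. The 2 sets differ in kind: 239 of the 495 Rhox windows lay within 1 kb of a known gene start, against 1773 of 58358 others. At those starts the wildtype median was 0.456 in both sets.

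All 33 genes reached 20 fragments over both libraries, the minimum for a call, and each of them had a positive log2 ratio (knockout over wildtype). A call of higher needed a ratio of 2 or more, a call of lower a ratio of 0.5 or less, and both needed an interval clear of 1. By that rule 27 were higher, 0 lower and 6 neither, with a median log2 ratio of 2.01. Among all protein-coding genes with the minimum 9.63% were called higher and 5.64% lower, with a median of 0.31. Among the other genes of X 28.4% were called higher and 12.4% lower, with a median of 0.43. The Rhox genes made up 27 of the 243 genes of X called higher (11.1%) and 4.16% of those with the minimum. A ratio of 4 or more was reached by 17 of the 33, and one of 8 or more by 6. These values are for whole spans, which differ in length between genes. Read only within 1 kb of gene ends, 59.7% of other X genes were called higher, with a median of 1.55. For Rhox genes the values at gene ends were 83.3% and 2.31, a smaller gap in medians than over spans. How reads that align to several places were treated is not stated, so near-identical copies may share reads and the values of single Rhox2, Rhox3 and Rhox4 copies are uncertain.

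**Figure D1:**
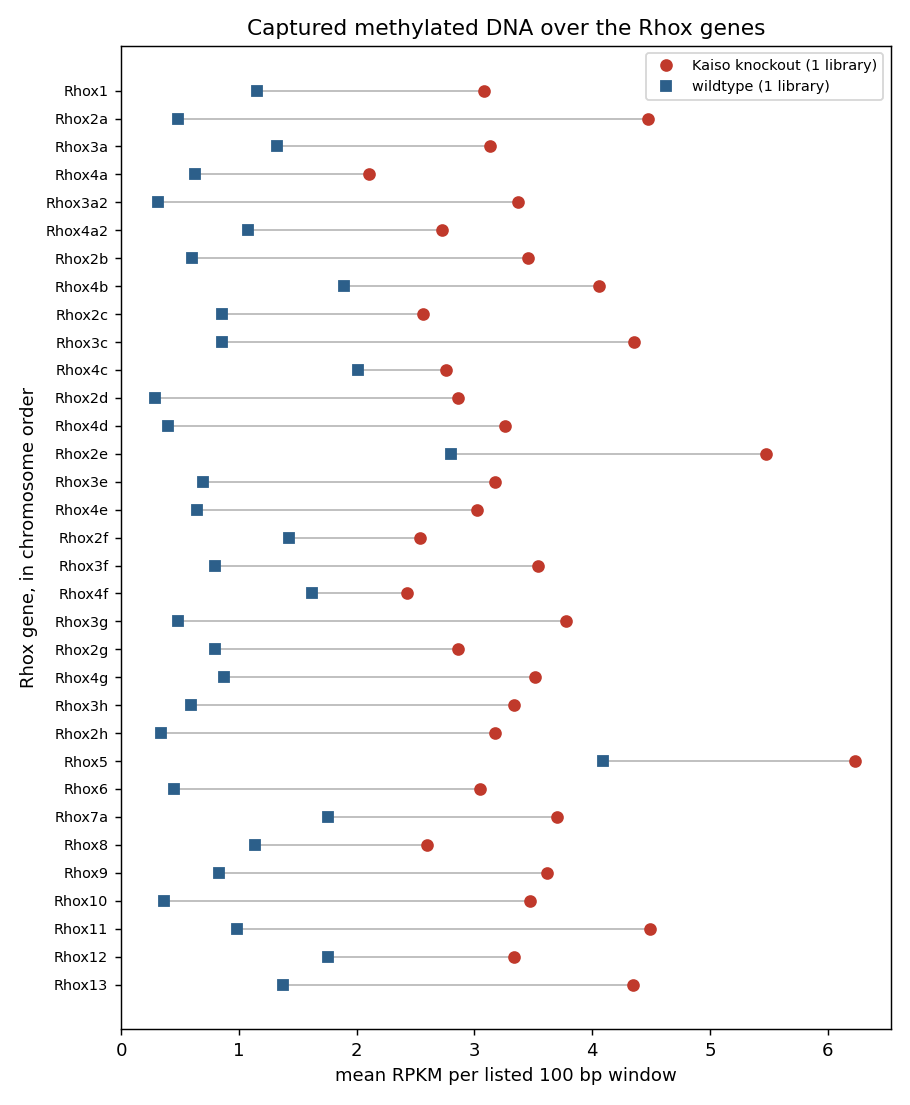
Mean RPKM per listed window for each Rhox gene with 1 kb on each side, in the Kaiso knockout library (circles) and the wildtype library (squares), 1 library each, genes in chromosome order. The knockout value is the higher in all 33 genes, and Rhox5, with 6.24 against 4.10, has the highest value in both libraries.

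Rhox1, the first gene of the alpha subcluster (chromosome X, 37213804 to 37222258), had 668 knockout counts, against 223 wildtype counts, in 22 windows (log2 1.41, 0.96 to 1.87). Its listed windows formed separate groups. A stretch of 18 adjacent windows inside the gene, from 37217401 to 37219200, had 16 to 45 knockout counts per window, against 1 to 6 wildtype counts (log2 2.92, 2.17 to 3.68). The 4 other windows, near the ends of the gene, were lower in the knockout library, with 71 counts, against 153 in wildtype. The promoter of Rhox1 in RefSeq holds 0 CpGs and had no listed window.

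Rhox2 copies differed in size but not in direction. The 8 copies ran from 0.83 to 3.30, and 6 were called higher. Rhox2d, the highest, had 366 knockout counts, against 33 wildtype counts (log2 3.30, 2.32 to 4.61), and its 13 windows formed an unbroken stretch over the start of the gene. Rhox2f, the lowest, had 476 and 238 counts (0.83, 0.36 to 1.29). Within Rhox2f, 13 adjacent windows had 19 to 46 knockout counts, against 0 to 9 wildtype counts, while the 6 others were lower in the knockout library, with 78 counts against 171. Rhox2e, also not called, held the strongest knockout windows of the alpha subcluster, 2 adjacent windows with 136 knockout counts each, against 100 and 91 wildtype counts. Around its start the 9 windows from 37530301 to 37531200 had 18 to 63 knockout counts, against 2 to 7 wildtype counts. The whole-gene values of Rhox2e and Rhox2f thus pooled a stretch with few wildtype reads with windows of higher wildtype counts.

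Rhox3 copies were called higher in 7 of 7 cases, from 1.24 to 3.43. Rhox3a2, the highest member of the family, had 399 knockout counts, against 33 wildtype counts (log2 3.43, 2.44 to 4.73), and 3 of its 12 windows held no wildtype count. Rhox3a, the lowest, had 648 and 244 counts (1.24, 0.81 to 1.69). In Rhox3a the higher windows lay within the gene: 13 adjacent windows centred 5.43 kb after its start had 14 to 47 knockout counts, against 0 to 7 wildtype counts. Rhox3h was alike, with 6 windows centred 7.26 kb after its start and 27 to 52 knockout counts, against 1 to 4 wildtype counts. The promoters of Rhox3a and Rhox3h are identical over 300 of 300 bases, while those of Rhox3a and Rhox3a2 share 48.3% of aligned bases. The Rhox3h promoter had no listed window.

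Rhox4 copies ran from 0.45 to 3.03, with 6 of 8 called higher. Rhox4b, known as Ehox, is a gene described in differentiating mouse embryonic stem cells, and it had 200 knockout counts, against 83 wildtype counts (1.10, 0.32 to 1.89), all in 5 windows at its start. Its promoter windows had 39 to 45 knockout counts, against 14 to 20 wildtype counts, the highest wildtype counts of the 7 Rhox4 promoters read. Rhox4d, the highest copy, had 193 and 21 counts (3.03, 1.77 to 4.78). Rhox4c, the lowest member of the family, had 326 and 212 counts (0.45, -0.05 to 0.99). At the start of Rhox4c, 7 adjacent windows had 22 to 48 knockout counts, against 4 to 11 wildtype counts, and 5 windows at the other end had 1 to 27 knockout counts, against 13 to 45 wildtype counts.

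**Figure D2:**
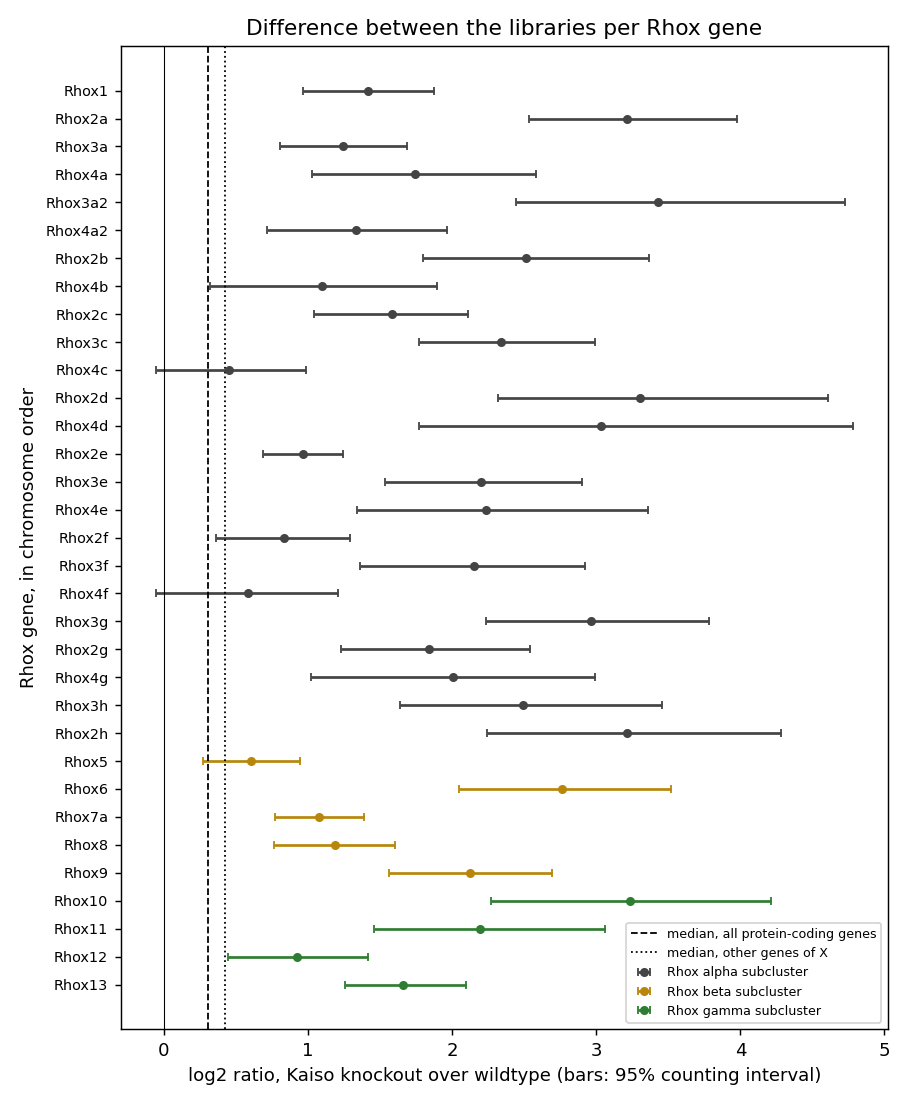
Log2 ratio of Kaiso knockout over wildtype for each Rhox gene with its 95% counting interval, coloured by subcluster, with the medians of all protein-coding genes (dashed, 0.31) and of the other genes of X (dotted, 0.43). The points run from 0.45 in Rhox4c to 3.43 in Rhox3a2, and high and low genes occur in each subcluster.

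In the beta subcluster, Rhox5 stood apart by its wildtype level. Rhox5, also called Pem, is the founding member of the family and is expressed in Sertoli cells and epididymis. It had 799 knockout counts, against 467 wildtype counts (log2 0.61, 0.27 to 0.95), and was not called. Its span of 54.3 kb held 13 listed windows, 2.31% of those that tile it, and all began at 37805301 or later, in the last part of the gene. The strongest of them had 98 knockout counts, against 50 wildtype counts. No window of Rhox5 was without wildtype reads, and its RefSeq promoter, with 5 CpGs, had no listed window.

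Rhox6 and Rhox9, known as Psx1 and Psx2 and first described in placenta, were called higher. Rhox6 had 571 knockout counts, against 75 wildtype counts (2.76, 2.05 to 3.52), and all 19 windows were higher in the knockout library. For Rhox9 the counts were 641 and 131 (2.12, 1.56 to 2.70), again with 18 of 18 windows higher. The longest runs of adjacent listed windows without a wildtype count held 3 windows, and the run in Rhox9, from 37901301 to 37901600, had 32 to 36 knockout counts per window. In the alpha subcluster such runs lay in Rhox3a (20 to 37 knockout counts), Rhox2b (12 to 29) and Rhox3g (24 to 43). Rhox8, a gene of Sertoli cells, had 692 and 270 counts (1.19, 0.77 to 1.61), and Rhox7a had 1205 and 509 counts (1.08, 0.77 to 1.39). Both of these genes again combined a long stretch of low wildtype counts with windows of the other direction. In Rhox8, 16 adjacent windows had 19 to 49 knockout counts, against 1 to 7 wildtype counts, and 7 windows elsewhere were lower in the knockout library.

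In the gamma subcluster, Rhox10, which is needed for normal spermatogonial stem cells in mice, had 445 knockout counts, against 42 wildtype counts (3.24, 2.27 to 4.21). Its 13 windows formed an unbroken stretch over the start, from 38066201 to 38067500. Rhox11 had 354 and 69 counts (2.19, 1.46 to 3.06), in 8 adjacent windows over its start. Rhox13, a gene of male germ cells, had 899 and 253 counts (1.66, 1.26 to 2.10), with 21 of 21 windows higher. Within Rhox13, 12 adjacent windows had 17 to 55 knockout counts, against 0 to 7 wildtype counts, and the window of the gene with the most knockout counts, outside that stretch, had 75 and 45 counts. Rhox12 was not called, with 460 and 216 counts (0.92, 0.44 to 1.42). In the gamma subcluster windows without a wildtype count stood alone, in Rhox10 with 28 knockout counts and in Rhox13 with 17. The only listed window of the Rhox12 promoter had 4 knockout counts, against 14 wildtype counts.

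Pooled over windows, the alpha subcluster was 3.30-fold higher in the knockout library (3.04 to 3.58), the beta subcluster 2.42-fold (2.14 to 2.74) and the gamma subcluster 3.31-fold (2.75 to 4.01). Of their windows 84.8%, 88.1% and 94.6% were higher in the knockout library. Without the copies of Rhox2, Rhox3, Rhox4 and Rhox7, whose reads may be shared, 7 of the 9 remaining genes were called higher, and their pooled log2 ratio was 1.49, against 1.61 with all genes.

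Pooled over genes, the difference was larger at the start than at the other end. RefSeq gave an orientation for 27 of the 33 genes. The 6 others, Rhox2f, Rhox4d, Rhox6, Rhox7a, Rhox8 and Rhox9, were left out of the values for starts and other ends. In the 239 windows within 1 kb of a start the knockout library had 8599 counts, against 1290 in wildtype, a 5.93-fold difference (5.27 to 6.68), and 232 windows were higher (97.1%). The 30 windows within 1 kb of the other end, and of no start, had 492 knockout counts, against 721 wildtype counts. Their ratio was 0.607 (0.480 to 0.769), and 26 of them were lower. Another 3 windows, at the other end of Rhox2a, lay within 1 kb of the Rhox3a start and were counted as starts. These had 1 knockout count, against 34 wildtype counts. The 30 windows lay only in Rhox1, Rhox2c, Rhox2e, Rhox3c, Rhox3e, Rhox4a, Rhox4a2, Rhox4c, Rhox4f and Rhox5. Starts and other ends were thus not read in the same set of genes. The ratio at starts and that at the other ends thus lay on opposite sides of 1, with intervals that do not overlap. Windows inside the genes, oriented or not, gave 2.00-fold, and the 83 windows at the ends of genes without an orientation gave 3.74-fold. In windows with 1 or 2 CpGs the ratio was 5.08 at 125 start windows and 0.563 at 25 windows of the other end.

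The 1773 windows of X at starts of genes outside the family were 2.99-fold higher in the knockout library (2.89 to 3.09), with 93.3% higher. The 821 windows of X at the other ends of genes outside the family gave 1.30-fold (1.26 to 1.35), with 58.1% higher. In windows with 1 or 2 CpGs, the class of 25 of the 30 Rhox windows at other ends, the ratio on X was 2.88 at 845 start windows and 0.989 (0.940 to 1.04) at 521 windows of other ends, of which 43.2% were higher. Over the whole genome the starts gave 1.86-fold in 39687 windows and the other ends 1.32-fold in 49266 windows. At other starts on X the median wildtype RPKM was 0.456, equal to that at Rhox starts, and the median knockout RPKM was 2.84, against 3.55 at Rhox starts.

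**Figure D3:**
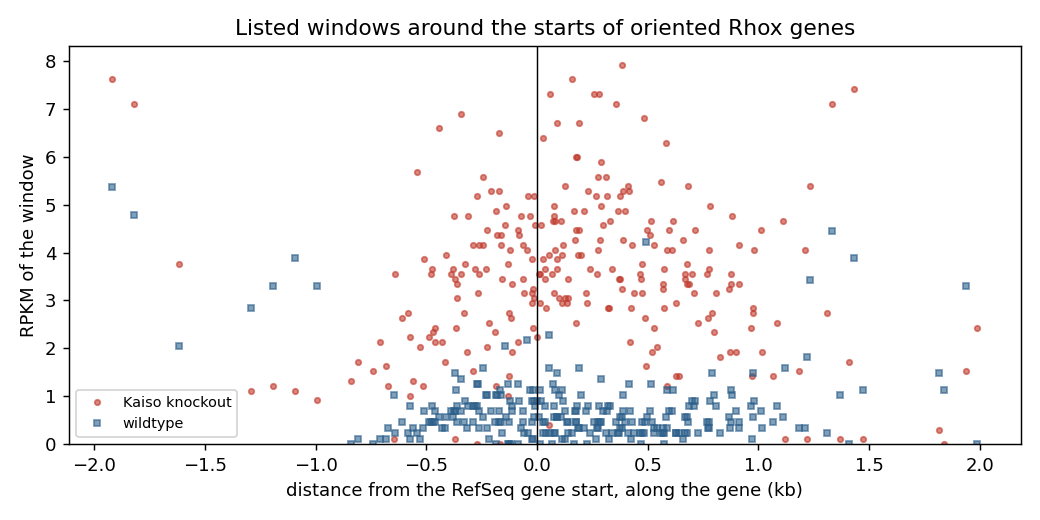
RPKM of each listed window within 2 kb of the RefSeq start of the 27 oriented Rhox genes, in the Kaiso knockout library (circles) and the wildtype library (squares), against the distance from the start along the gene in kb. From 0 to 0.5 kb after the start 86 of 88 windows are higher in the knockout library, with a median of 4.11 against 0.456, and listed windows become few beyond 1 kb.

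Each gene held a run of higher windows. The longest run of adjacent windows higher in the knockout library held 4 to 18 windows per gene, with a median of 10, or 1.0 kb. The median knockout count in these runs had a median of 35 over the genes, against 4 in wildtype. The runs were picked by their direction, so these values describe them and test nothing. The run spanned the RefSeq start in 18 of the 27 oriented genes. It did not in Rhox1, Rhox3a, Rhox3a2, Rhox3g, Rhox3h, Rhox4a2, Rhox5, Rhox12 and Rhox13. An unlisted window breaks a run, and a shorter run of higher windows did span the start in Rhox3g, Rhox4a2 and Rhox13. These shorter runs had 232, 81 and 81 knockout counts, against 30, 12 and 10 wildtype counts. In Rhox3a2 the longest run began at 37380401, just after the start at 37380383.

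RefSeq promoters of 300 bases were read for the 27 members in the table. A listed window overlapped 24 of them, against 16.0% of all protein-coding promoters and 20% of those of other X genes. Of the 27, 20 reached the minimum and all 20 were called higher, beside 48.4% of all promoters with the minimum and 77.9% of those of other X genes. The minimum was reached mostly through knockout reads, so the count describes the listed promoters and does not stand for all 27. Their median log2 ratio was 2.53, against 0.95 over all promoters and 2.67 over those of other X genes, so the Rhox promoters were near other listed promoters of X. Among promoters with 5 to 12 CpGs the median was 2.72 in 17 Rhox promoters, 2.83 in 62 of other X genes and 1.27 in 987 outside the family on any chromosome. Rhox1, Rhox3h and Rhox5 had no listed promoter window, and Rhox3a, Rhox3a2, Rhox3f and Rhox12 stayed under the minimum.

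The Rhox promoters hold 0 to 12 CpGs, with a median of 7, against 13 over all protein-coding promoters and 8 over those of other X genes. The motifs known to be bound by Kaiso, CGCG and TCCTGCNA, were searched on both strands, and they share no overlap. CGCG was found in 0 of the 27 Rhox promoters, against 49.4% of 17492 protein-coding promoters and 37.3% of those of other X genes. TCCTGCNA was also found in 0 of 27, against 4.67% of all promoters and 3.54% of those of other X genes. The compared promoters were not matched for CpG content, and many of the 27 are copies of Rhox2, Rhox3 or Rhox4. These letters were searched in 300 bases per gene and nowhere else. Promoters of Rhox2 copies were 74.6 to 99.7% identical in pairs, and those of Rhox4 copies had a median identity of 84.7%.

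From 1 to 6 CpGs per window, the wildtype medians of Rhox windows lay below those of other X windows. Rhox windows with 1 CpG had a median RPKM of 2.23 in the knockout library and 0.798 in the wildtype library, and 70.9% of 117 windows were higher. Other windows of X with 1 CpG had 1.12 and 1.82, and 45.8% were higher. With 4 CpGs the Rhox medians were 4.06 and 0.570, and those of other X windows 5.89 and 3.42. All 67 Rhox windows with 5 or more CpGs were higher in the knockout library, as were 98.9% of all listed windows of that kind. Over these classes the wildtype medians of other X windows increased with CpG content and those of Rhox windows did not. This was not particular to Rhox at gene starts. Within 1 kb of other X starts the wildtype median was 0.342 with 1 or 2 CpGs and 0.456 with 5 or more. At Rhox starts the same medians were 0.456 and 0.570.

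**Figure D4:**
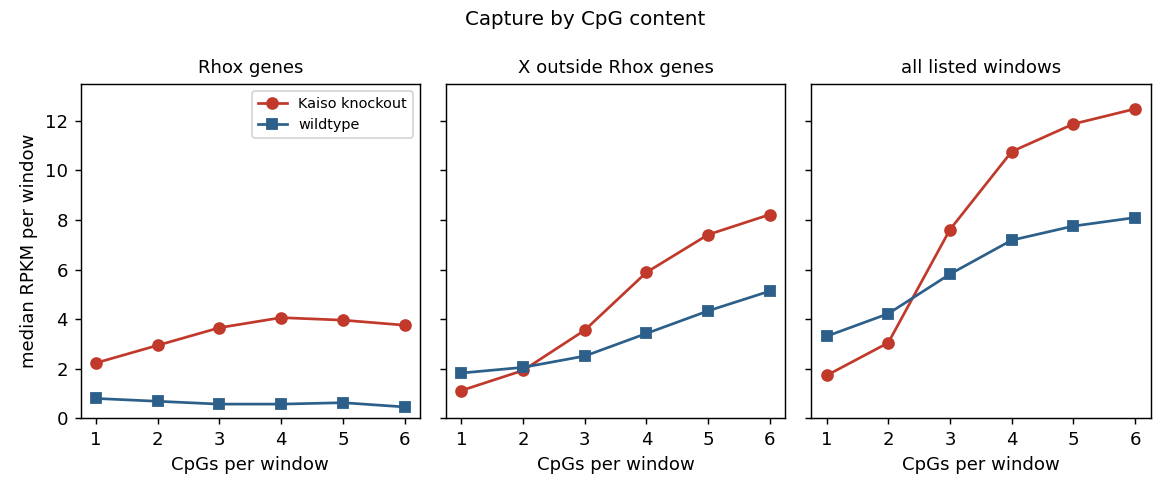
Median RPKM per listed window by number of CpGs (1 to 6), in the Kaiso knockout library (circles) and the wildtype library (squares), for Rhox genes, for X outside them and for all listed windows. The wildtype medians of the Rhox windows stay between 0.456 and 0.798, while those of all listed windows run from 3.31 to 8.09. Windows at gene starts and elsewhere are pooled.

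The relative methylation score of the authors, a second readout of the same reads, gave the same direction. Its median over the Rhox windows was 0.0880 in the knockout library and 0.0195 in the wildtype library, and 425 of 495 windows had the higher score in the knockout. In other windows of X the medians were 0.0887 and 0.0968. With all windows pooled, the knockout score of Rhox windows was thus near that of X, and the wildtype score lay below it. At gene starts the median knockout and wildtype scores were 0.102 and 0.0154 for Rhox windows. For other X windows at starts they were 0.0720 and 0.0138, so the low wildtype score was shared there. Windows without a wildtype count numbered 27 in the family and those without a knockout count 5. High knockout counts occurred with and without wildtype capture, as in a window of Rhox5 with 98 knockout and 50 wildtype counts and in a window of Rhox3c with 78 and 5.

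The cluster covers 916 kb and ends 59.8 kb before Zbtb33, the targeted gene, so the family and the altered allele are neighbours on X. Zbtb33 itself had 83 knockout counts, against 303 wildtype counts (log2 -2.04, -2.80 to -1.31), and captured counts move with methylation, so they do not check the deletion. Between the Rhox genes of the cluster 316 further windows gave a pooled log2 ratio of 0.27 (0.18 to 0.37), with 47.8% higher. Within 1 Mb on both sides of the cluster 1008 windows gave 0.29 (0.24 to 0.35), with 52.0% higher. The ratio thus differed between the Rhox genes and the DNA between them, by more than counting error. These sets differ in kind, since 239 of the 495 Rhox windows lay within 1 kb of a known gene start. Such a gap was not particular to Rhox. On X outside the family, windows at gene starts gave 2.99-fold and all listed windows 1.35-fold. Windows inside the Rhox genes gave 2.00-fold. Of the 27 other genes within 1 Mb, 19 had the minimum, 2 were called higher (Gm9 and Akap14) and 3 lower (Lonrf3, Pgrmc1 and Akap17b), with a median of 0.26. Gm9, 2.76 kb before the cluster, had 187 knockout counts, against 32 wildtype counts (2.38, 1.29 to 3.68). Rnf113a1 had 124 and 58 counts (0.93), and Ndufa1 had no listed window. On the other side Tmem255a (0.66) and Atp1b4 (0.29) were not called. Inside the cluster Btg1b and Btg1c stayed under the minimum.

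**Figure D5:**
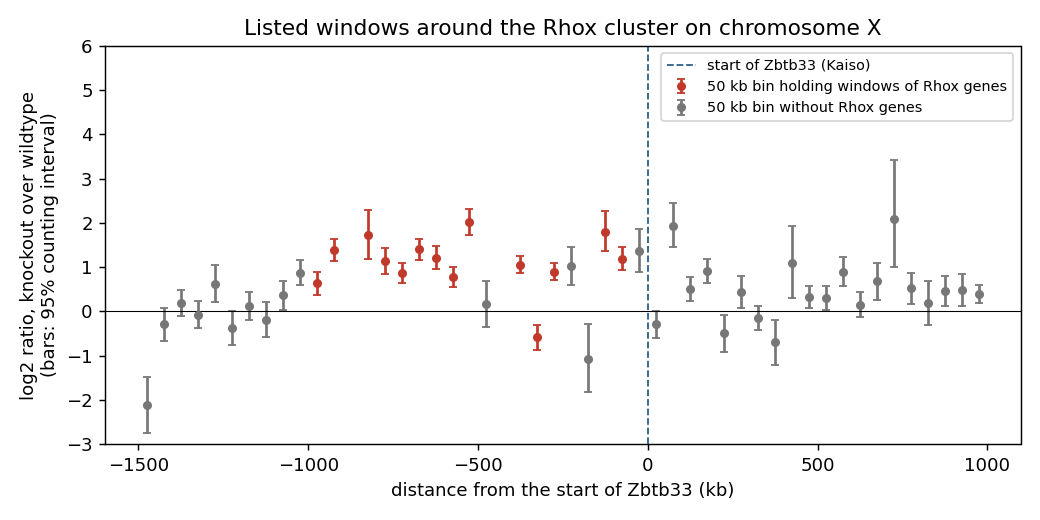
Log2 ratio of Kaiso knockout over wildtype in 50 kb bins, with 95% counting intervals, against the distance from the start of Zbtb33 in kb. Bins holding windows of Rhox genes (red) lie before Zbtb33, and 13 of the 14 with listed windows are above 0. Most of the other bins (grey) are above 0 too, and some lie below it.

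Other genes were read in the same way, and differences between lists were not tested. Hox genes, the homeobox genes of body axis patterning, numbered 36 with the minimum, of which 33 were called higher and 1 lower (median 2.31). Hoxc13 had 229 knockout counts, against 0 wildtype counts, and Hoxd8 30 and 82 (-1.62). Btbd35f genes, a multicopy family on X, were called higher in 29 of 29, with a median of 2.17, and a range of 1.47 to 3.32. Btbd35f22 had 284 knockout counts, against 38 (2.73), and Btbd35f25 had 236 and 70 (1.59). Among other X genes Kcne1l had 172 knockout counts, against 0, and Chst7 had 86 and 395 (-2.37). The Rhox median of 2.01 lay near those of both families.

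A list of 13 genes around the family held genes of DNA and histone methylation (Dnmt1, Dnmt3a, Dnmt3b, Dnmt3l, Uhrf1, Hells, Ehmt1, Ehmt2), the reported Rhox5 targets Unc5c and Ins2, and other X-linked homeobox genes. Of 11 with the minimum, 2 (18.2%) were called higher and 9 neither, with a median of 0.34. Among all protein-coding genes 9.63% were called higher, and among other X genes 28.4%. The 2 called genes lie on X, and the 9 not called lie on autosomes. The higher ones were the testis homeobox genes Tgif2lx2, with 206 knockout counts, against 29 wildtype counts (2.66, 1.58 to 4.11), and Tgif2lx1 (1.90). Hells, a chromatin remodeller gene needed for DNA methylation, had 1196 knockout counts, against 1321 wildtype counts (-0.31, -0.54 to -0.08), and was not called. Dnmt3b (0.37) was not called either, Ins2 was under the minimum and Esx1 had no listed window.

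Loci whose methylation is known to differ between germ cells and somatic cells were read beside the Rhox genes. Of 14 germline genes, which carry promoter methylation in somatic tissue and lose it in germ cells, 12 were called higher at their ends and 0 lower, with a median of 2.76, beside 22.5% of all gene ends and 59.7% of those of other X genes. Over spans with 1 kb on each side 5 of the 14 were called higher and 9 neither, with a median of 0.57. At the ends their summed counts were 13255 in the knockout library and 2697 in wildtype, and none was at 0. Of the 14 maternally methylated imprinted genes, free of methylation in sperm, 11 were matched and 9 had the minimum. All 9 were called higher (median 2.41), with 8134 and 1257 summed counts, and the ends of Snrpn were at 0 in both libraries. At gene ends 25 of 30 Rhox genes with the minimum were called higher and 1, Rhox1, lower, with a median of 2.31. The part of cell makeup in the Rhox difference was not tested. Captured DNA holds no expression markers, so the testis label was not checked further.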

How the data were processed

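Captured DNA of 1 Kaiso knockout and 1 wildtype testis was compared. Bowtie2 2.2.6, edgeR and mm10 are named in the submitters' processing notes, and the read extension and the handling of duplicates were not given in the sources used here. The deposited table gives, per the file headers, a whole-number count per 100 bp window, its RPKM, a relative methylation score of unstated scale, the CpGs per window, and the authors' log2 fold change and p-value. That log2 value was coded as wildtype over knockout. Deposited counts and RPKM gave the library reads. The adjusted p-value equalled the unadjusted one in all 2537435 windows. Another 10 columns of values were not used.

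Python 3.11.15, scipy 1.17.1 and biopython 1.88 were used, with R 4.3.3 and edgeR 4.0.16 for TMM. Counts in gene spans with 1 kb on each side were summed, divided by 4 and scaled by library reads, with exact Clopper-Pearson 95% intervals on whole fragments. A library under 1 fragment was set to a floor of 3 fragments. Gene positions, orientation and promoters came from RefSeq GRCm38.p6. Promoters were aligned globally for identity. Single-copy members, the highest and lowest copy of each multicopy group, the nearest neighbours and the extreme genes of each compared list were named. Members and lists were chosen with earlier results of these data known. Some genes chosen for the list around the family are not reported here, and its counts leave them out. The code for intervals and calls was checked on simulated counts, which is no test of the 2 libraries. Other scalings, regions, window sets, minimums and folds were tried.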

Additional observations from a re-analysis of the deposited data

How the results depend on the processing

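Under each of the 6 other scalings 0 Rhox genes were called lower, and at gene ends 1 was. The pooled log2 ratio of 1.61 was 1.34 with listed autosomal counts, 1.17 with listed counts of X outside the family, 1.43 with TMM, 1.74 with the authors' scaling, 1.28 within CpG classes and 0.95 when CpG-rich windows (5 or more CpGs) were centred on 0. These settings moved the median of all protein-coding genes by -0.27, -0.44, -0.17, 0.13, -0.29 and -0.66. A scaling of whole libraries moves every gene alike, so the gap of 1.70 between the Rhox median and that of all genes is fixed under them. Under CpG classes, which move genes unequally, the gap was 1.59. Of all called genes 63.0% were higher, against 47.9%, 40.1%, 53.2%, 71.0%, 50.6% and 28.6% under these settings. The pooled ratio was 1.98 at gene ends, 1.32 with 5 kb on each side, 1.84 with 3 or more CpGs, 1.35 with 1 or 2 CpGs and 1.87 without the 10% of windows with the most counts. With a deposited p-value below 0.001 it was 2.52, with a median over genes of 2.77, and in promoters, a setting chosen after seeing the data, 2.39 and 2.53. The number of genes called higher was 20 to 32 in 19 settings, 17 with a fold of 4 and 7 of 9 without the multicopy genes, where the pooled ratio was 1.49. The share of windows higher was 89.7% without these genes, 95.4% with 3 or more CpGs and 97.4% with a p-value below 0.001. The median score difference of 0.0555 was 0.0433, 0.0367 and 0.0733 under the same settings. The cause of these shifts was not tested. Depth limits single windows, where wildtype counts of 0 to 6 were common. No paired analysis was possible because each genotype had 1 library and no test was run.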
